A study of Mus musculus with 24 samples.

Results

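Fibroblast growth factor (FGF) signalling was followed through 10 mouse genes: the ligands Fgf4, Fgf5, Fgf8 and Fgf15, the receptors Fgfr1, Fgfr2 and Fgfr3, and the feedback inhibitors Spry2, Spry4 and Dusp6. They were taken by name from the gene count tables, which hold 51912 genes, and all 10 were present. The tables come from 9 RNA-seq libraries, 3 for each of 3 cell populations. ESCs were wild-type TC-1 mouse embryonic stem cells with the strain label C57BL/6 X 129S5, grown with the self-renewal factor LIF. NPs were neuronal progenitors made from the same wild-type cells through cellular aggregates and retinoic acid. TET TKO ESCs lacked TET1, TET2 and TET3, the enzymes that oxidise methylated cytosine, and carried the strain label C57BL/6 X 129/sv. They are thus another cell line, with a median depth of 84377108 counts against 21602345 in ESCs, so genotype, line and depth cannot be told apart in that comparison. The other samples of the series hold methylation assays on inserted fragments and were not analysed here.

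FGF ligands bind receptor tyrosine kinases together with heparan sulfate and signal through RAS to the kinases MEK and ERK. Sprouty proteins and the phosphatase DUSP6 are switched on by this pathway and dampen it. In embryonic stem cells FGF4 is the main autocrine ligand and prepares the cells to leave self-renewal, FGF5 marks the epiblast that follows, and in the embryonic nervous system FGF8 and FGF15 are patterning signals and FGFR1, FGFR2 and FGFR3 are the receptors of dividing progenitors.

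Levels are given as RPKM, reads divided by the exon length in the tables and by the library total after TMM scaling over the 9 libraries, so that genes can be compared per length. A gene was tested where it reached 1 RPKM in at least 1 library of the groups compared. It was called higher or lower at a fold change of at least 3 and an adjusted p under 0.001 in edgeR's quasi-likelihood test of 3 against 3 libraries, with Benjamini-Hochberg adjustment over all genes tested. Errors of log2 fold changes are standard errors, and those of levels are SD.

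The labels were checked against marker genes. All 14 neural progenitor markers tested were called higher in NPs, where their summed level was 468.5 to 721 RPKM against 65.9 to 74.5 in ESCs, and all 14 pluripotency markers were called lower. In TET TKO ESCs 1 of the pluripotency markers was called lower and their sum, 3015 to 3769 RPKM, spanned that of ESCs (3250 to 3373). The neural progenitor sum was 22.2 to 45.7 RPKM there, the neuron sum 53.9 to 104.3 against 127 to 143 in ESCs, and the endoderm sum 11.8 to 15.2 against 20.7 to 23.3. Of these markers only 5 neural progenitor, 5 neuron and 2 endoderm ones were tested there. None was called, against 2.31% of all genes. Vim was lower than in every ESC library (−1.99 ± 0.35, edgeR adjusted p = 0.00453), and Nes was higher (1.44 ± 0.24, edgeR adjusted p = 0.00385). Tet1 stood at 60.8 to 68.5 RPKM in ESCs and 11.3 to 16.1 in TET TKO ESCs (log2 fold change −2.28 ± 0.14, edgeR adjusted p = 8.67e-05). Tet2 was at 16.1 to 20.5 and 2.32 to 2.70 RPKM (−2.94 ± 0.13, adjusted p = 1.74e-05). Tet3 was under 1 RPKM in both and was not tested. These counts span whole genes and do not resolve the deleted parts. Genes of other cell types were called in NPs as well, where 12.4% of all genes tested were called higher and 9.98% lower. Of 8 markers of fibroblasts or feeder cells 6 were tested, with 2 called higher and none lower. Their summed level was 60.1, 134.7 and 26.8 RPKM in NP libraries 1, 2 and 3. It was 6.94 to 9.70 in ESCs and 4.93 to 12.8 in TET TKO ESCs. Most of the NP sum was Acta2 (40.8, 96.5 and 22.8 RPKM), which was not called (edgeR adjusted p = 0.00127). Of 8 mesoderm markers 3 were tested in NPs and 2 of them were called higher, with 1 of the 8 at 0 in all NP libraries. Their sum was 11.04, 27.1 and 6.19 RPKM there, against 2.70 to 3.02 in ESCs and 1.39 to 3.18 in TET TKO ESCs. Meox1 (8.83, 23.8 and 4.76 RPKM) was the 1 mesoderm marker with a mean of at least 1 RPKM in NPs. Of 10 neuron markers 9 were tested in NPs, with 5 called higher and 1 lower. Of 9 endoderm markers 8 were tested and 4 were called higher. Of 8 neural crest and glia markers 4 were tested, with 2 called higher and 1 lower. A trophoblast list of 8 genes was led by the keratins Krt8 and Krt18, and 6 were tested in each comparison. Of these, 3 were called higher and 2 lower in NPs, and 1 higher in TET TKO ESCs. The list summed to 353 to 427 RPKM in NPs, to 158, 230 and 439 in TET TKO libraries 1, 2 and 3, and to 37.9 to 43.3 in ESCs. The part of such cells in the results was not tested. In these bulk libraries fewer cells of a type and less RNA per cell cannot be told apart.

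In NPs, 5 of the 10 FGF genes were called: Fgfr2 and Fgfr3 rose, and Fgf4, Spry2 and Spry4 fell. Of the 15197 genes tested in that comparison 22.4% were called, 12.4% higher and 9.98% lower. At an adjusted p under 0.05 with no limit on fold there were 6, Fgf5 being the other one, against 64.1% of all genes, and the ranges of the libraries did not overlap for 6 of the 9 tested, against 71.9%. Fgf8 reached 1 RPKM in no library and was not tested. The median log2 fold change over the 9 tested members was 0.49, against 0.04 over all genes tested.

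The stretches before the starts of the members called in NPs are printed because they differ in how many CpG dinucleotides they hold. TET enzymes act at CpGs, but methylation of these stretches was not examined here and a link to the calls was not tested. RefSeq's table (GRCm38.p6) has 6 of the 10 members, Fgf4, Fgf5, Fgfr2, Fgfr3, Spry2 and Dusp6, and 4 of the 5 called ones. For each of these 4, the 250 bases before the RefSeq start are given 5′ to 3′ on the gene's strand, with each CpG in capitals. The Fgf4 and Fgfr2 models of the count tables extend further upstream, so that their stretches lie inside those models, outside the exons. For Fgfr3 the first of the starts listed is used, and the stretch ends after 200 bases, where the first Fgfr3 exon of the count tables begins. It lies within an exon of the antisense gene G630022F23Rik.
Fgf4, chr7:144861136-144861385, plus strand: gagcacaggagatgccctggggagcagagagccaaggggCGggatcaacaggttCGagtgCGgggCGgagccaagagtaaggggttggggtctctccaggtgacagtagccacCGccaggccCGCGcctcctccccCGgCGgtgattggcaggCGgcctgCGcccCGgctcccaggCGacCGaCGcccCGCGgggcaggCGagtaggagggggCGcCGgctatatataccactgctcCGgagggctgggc
Spry2, chr14:105896820-105897069, minus strand: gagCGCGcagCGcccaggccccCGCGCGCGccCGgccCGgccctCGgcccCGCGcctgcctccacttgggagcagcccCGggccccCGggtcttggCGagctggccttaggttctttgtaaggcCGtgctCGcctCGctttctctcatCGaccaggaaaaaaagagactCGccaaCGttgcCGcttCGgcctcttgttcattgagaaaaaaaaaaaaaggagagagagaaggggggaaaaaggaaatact
Fgfr2, chr7:130266809-130267058, minus strand: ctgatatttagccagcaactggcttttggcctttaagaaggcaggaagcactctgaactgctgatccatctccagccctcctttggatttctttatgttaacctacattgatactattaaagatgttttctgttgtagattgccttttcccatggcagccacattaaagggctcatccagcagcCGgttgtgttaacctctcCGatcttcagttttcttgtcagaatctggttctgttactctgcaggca
Fgfr3, chr5:33721474-33721673, plus strand: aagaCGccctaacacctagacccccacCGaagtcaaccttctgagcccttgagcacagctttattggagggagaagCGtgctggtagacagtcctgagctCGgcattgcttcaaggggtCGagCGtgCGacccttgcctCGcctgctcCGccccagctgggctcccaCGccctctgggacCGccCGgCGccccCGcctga

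Windows with many and with few CpGs both occurred among genes that rose. The low count is that of Fgfr2 alone, whose window lies inside the gene model of the count tables. Whether that window is a promoter in use in these cells was not tested. The 300-base window that runs from 250 bases before to 50 after the start held 28 CpGs at Fgf4, 28 at Spry2 and 26 at the first start of Fgfr3, but 4 at Fgfr2. The median over 32851 such windows was 7, and 14.2% of them held at least 28. Dusp6 had 19 CpGs and Fgf5 had 29, and neither was called. The core letters GGAA that ETS factors such as ETV4 and ETV5 read were counted on both strands. Dusp6 had 6 copies, Spry2 and the second start of Fgfr3 had 5, Fgfr2 had 4, Fgf5 had 2, the first start of Fgfr3 had 1 and Fgf4 had none. At least 1 copy stood in 96.0% of all windows and at least 6 in 15.7%. The longer CCGGAAG was in no member's window and in 8.86% of all windows.

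**Figure D1:**
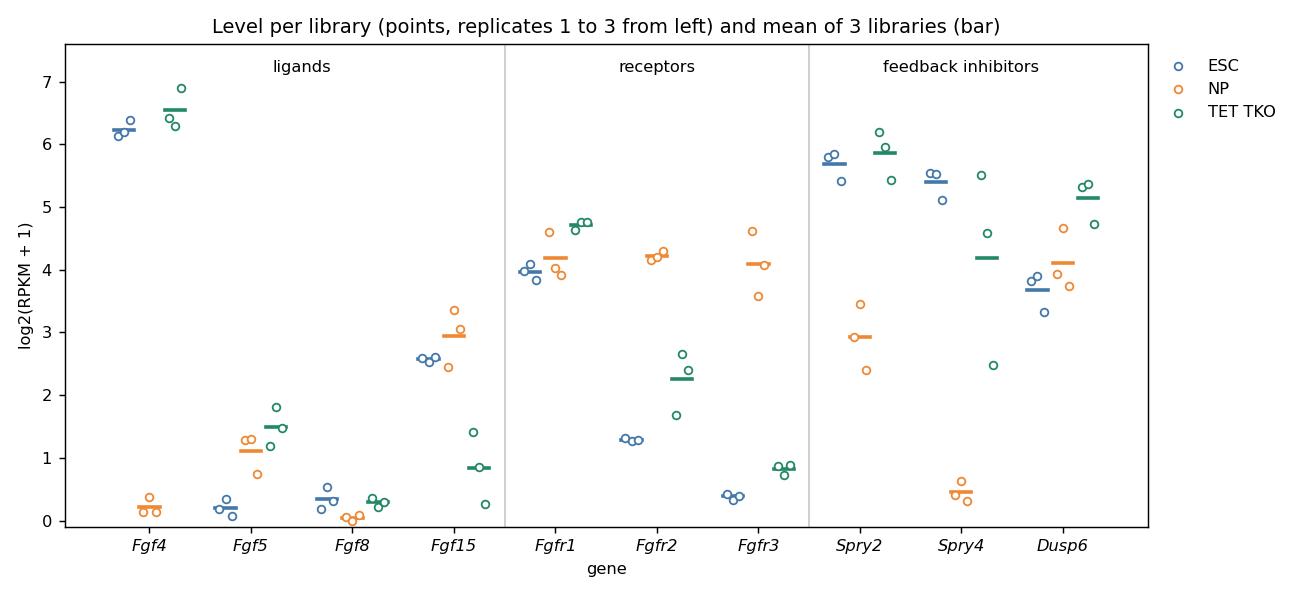
Level of each FGF gene on a log2(RPKM + 1) scale (vertical axis) in ESCs (blue), NPs (orange) and TET TKO ESCs (green). Open points are the 3 libraries and bars are their mean. Fgf4 and Spry4 are near 0 in NPs, Fgfr2 and Fgfr3 are highest there, and the TET TKO libraries are widely spread for Spry4 and Fgf15.

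Of the ligands, Fgf4 was the most abundant member in ESCs and near the limit of detection in NPs. The gene lies at chr7:144847367-144865243 on the plus strand of GRCm38. It was at 68.9, 72.1 and 82.6 RPKM in ESCs and at 0.103, 0.296 and 0.0945 RPKM in NPs, where the 3 libraries held 7, 23 and 7 counts. Every ESC library was far above every NP library, and the fitted fold change was 442-fold lower in NPs (log2 fold change −8.79 ± 0.32, edgeR adjusted p = 4.02e-07). NP library 2 held most of the NP counts, and without it the log2 fold change was −9.54. TET TKO ESCs were at 84.8, 77.7 and 118.6 RPKM, a range that overlaps that of ESCs (0.32 ± 0.17, adjusted p = 0.176).

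Fgf15, the mouse counterpart of human FGF19, has its gene 31287 bases downstream of Fgf4 on the same strand of chromosome 7. Its level was 5.02, 4.78 and 5.09 RPKM in ESCs and 4.45, 9.22 and 7.27 RPKM in NPs. The NP range includes the ESC range, and the difference was not called (0.49 ± 0.25, edgeR adjusted p = 0.120). TET TKO ESCs were at 1.65, 0.815 and 0.201 RPKM, all below ESCs, with a spread of 8.21-fold among themselves. The fitted difference there, 5.63-fold lower (−2.49 ± 0.63, edgeR adjusted p = 0.0185), was short of the call in edgeR and past it in DESeq2 (−2.61, adjusted p = 2.54e-05). Without TET TKO library 1 it was −3.31 and without the other ones −2.44 and −2.02, and none was called by edgeR. The neighbours therefore stood in very different proportion in the 3 populations: Fgf4 was 13.7 to 16.2 times Fgf15 in ESCs, 0.0130 to 0.0321 times in NPs, and 51.4, 95.4 and 590 times in TET TKO libraries 1, 2 and 3. An antisense gene, Gm26793, shares 761 exon bases (24.9%) with Fgf15, and reads there were counted without strand and cannot be assigned to either gene. Gm26793 itself held 4 to 6 counts in ESCs and 32 to 38 in NPs, against 290 to 685 for Fgf15 in NPs.

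Fgf5 was low in all populations and lowest in ESCs. It was at 0.132, 0.275 and 0.0488 RPKM in ESCs (7, 15 and 3 counts), at 1.43, 1.46 and 0.673 RPKM in NPs (76, 89 and 39 counts) and at 1.28, 2.51 and 1.78 RPKM in TET TKO ESCs (247, 449 and 384 counts). ESCs did not overlap with either. The fitted difference was 7.81-fold in NPs (2.96 ± 0.57, edgeR adjusted p = 0.00197) and 12.3-fold in TET TKO ESCs (3.62 ± 0.54, edgeR adjusted p = 0.00243). Both passed the limit on fold and missed the limit on adjusted p, and both passed it in DESeq2 (adjusted p = 3.85e-05 and 1.64e-08). These comparisons share the ESC libraries, in which Fgf5 rests on 15 counts or fewer per library. Without ESC library 2 the log2 fold change was 3.70 for NPs. The same fit for TET TKO ESCs gave 4.36, and neither passed the call.

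Fgf8 was at the limit of detection throughout. The libraries held 4, 13 and 8 counts in ESCs, 1, 0 and 2 in NPs, and 30, 15 and 26 in the more deeply sequenced TET TKO ESCs, or at most 0.441 RPKM in any library. With no filter on low values its log2 fold change was −0.30 ± 0.54 in TET TKO ESCs (edgeR adjusted p = 0.722). NPs are at or under the 3 counts that a count of 0 allows in a library, so no fold is given there.

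Of the receptors, Fgfr3 went from trace levels to one of the main FGF receptors. The gene, at chr5:33721674-33737068 on the plus strand, was at 0.341, 0.256 and 0.318 RPKM in ESCs (40 to 56 counts) and at 23.6, 10.9 and 15.9 RPKM in NPs (1904 to 3606 counts). The lowest NP library was well above every ESC library, and the rise was 55.0-fold (log2 fold change 5.78 ± 0.33, edgeR adjusted p = 3.06e-06). TET TKO ESCs were at 0.837, 0.655 and 0.837 RPKM, under the 1 RPKM needed for the test but above all ESC libraries. With no filter on low values the difference was 1.34 ± 0.30 on the log2 scale (edgeR adjusted p = 0.00237) and was not called. The antisense gene G630022F23Rik shares 998 exon bases (13.9%) with Fgfr3 and held 8 to 34 counts in NPs.

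Fgfr2 had the smallest standard error of the 5 calls. It was at 1.501, 1.40 and 1.45 RPKM in ESCs and at 16.9, 17.4 and 18.7 RPKM in NPs. Its libraries agreed within 1.07-fold in ESCs and 1.11-fold in NPs, and the rise was 12.2-fold (3.61 ± 0.12, edgeR adjusted p = 3.15e-07). TET TKO ESCs were at 2.21, 5.32 and 4.30 RPKM, all above ESCs but spread over 2.41-fold, and the 2.70-fold difference was not called (1.43 ± 0.30, edgeR adjusted p = 0.00863). The Fgfr2 gene model reaches into Ctbp2 on the same strand and shares 314 exon bases (3.04%) with it. Ctbp2 was the more highly counted of the pair in ESCs and had fewer counts in NPs, opposite to Fgfr2.

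Fgfr1, the receptor that carries most FGF signalling in stem cells, was not called in NPs. It was at 14.7, 16.0 and 13.3 RPKM in ESCs and at 23.3, 15.4 and 14.1 RPKM in NPs, which overlap (0.26 ± 0.19, edgeR adjusted p = 0.256), and the sign of this difference turned with the scaling (−0.0096 under upper quartile scaling). TET TKO ESCs were at 23.8, 26.0 and 26.1 RPKM. All were above the ESC libraries and within 1.09-fold of each other. The 1.72-fold difference from ESCs missed the limits on fold and on adjusted p (0.78 ± 0.10, edgeR adjusted p = 0.00131).

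The makeup of the receptor pool can be read without any scaling between libraries. Among Fgfr1 to Fgfr4, Fgfr1 made up 81.0%, 83.4% and 77.9% of the summed RPKM in ESCs and 34.6%, 33.0% and 27.1% in NPs. The share of Fgfr2 was 7.31% to 8.48% in ESCs and 25.0%, 37.4% and 36.1% in NPs, and that of Fgfr3 was 1.33% to 1.88% in ESCs and 35.1%, 23.5% and 30.6% in NPs. The ESC pool thus consisted mainly of 1 receptor and the NP pool of 3 in similar amounts, with no overlap of the shares. Fgfr4 held 7.95% to 11.8% in ESCs and 5.33% to 6.11% in NPs. In TET TKO ESCs Fgfr1 held 82.2%, 78.4% and 78.3%, within or near the ESC range. The summed level was 17.0 to 19.2 RPKM in ESCs, 46.6 to 67.4 in NPs and 29.0 to 33.3 in TET TKO ESCs.

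**Figure D2:**
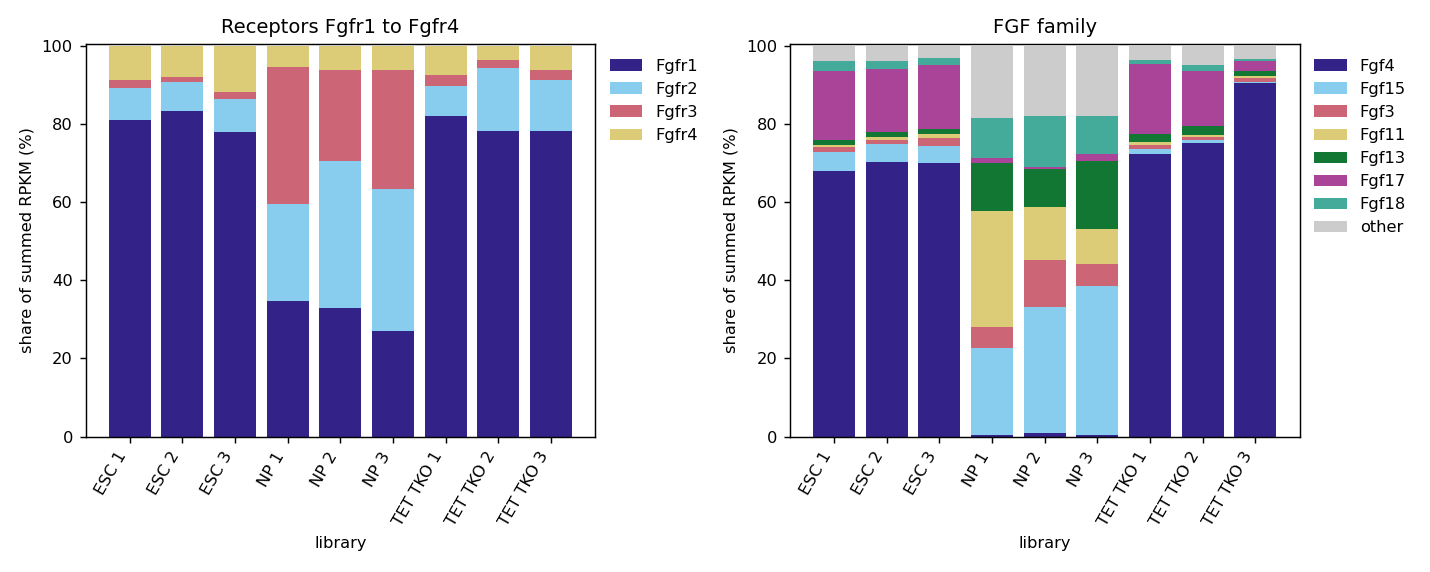
Share of each gene (vertical axis, %) in the summed RPKM of the receptors Fgfr1 to Fgfr4 (left) and of the whole FGF family (right) in each of the 9 libraries (horizontal axis). Family genes under 10% in every library are grouped as other. Fgfr1 fills about as much of the bar in TET TKO ESCs as in ESCs and shares it with Fgfr2 and Fgfr3 in NPs, and Fgf4 dominates the family in all ESC and TET TKO libraries and is at most 1.04% in NPs.

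The pool of FGF family transcripts differed as well. Fgf4 made up 67.9% to 70.2% of the summed RPKM of 22 FGF family genes in ESCs, 0.495% to 1.04% in NPs, and 72.3%, 75.2% and 90.6% in TET TKO libraries 1, 2 and 3. The share of Fgf15 was 4.33% to 4.95% in ESCs and 22.1%, 32.2% and 38.1% in NPs, although its level was not called different. The summed level of the family was 101.5 to 117.8 RPKM in ESCs and 19.1 to 28.6 in NPs. Fgf15, at 4.78 to 5.09 RPKM in ESCs and 4.45 to 9.22 in NPs, was thus a larger part of a smaller pool. Part of the NP pool was Fgf11 (8.91% to 29.5%) and Fgf13 (9.71% to 17.4%), which belong to the intracellular FGF homologous factors and are not receptor ligands of the usual kind.

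Among the feedback inhibitors, Spry2 and Spry4 fell in NPs and Dusp6 was not called. Spry4 was at 45.5, 45.0 and 33.6 RPKM in ESCs and at 0.327, 0.556 and 0.235 RPKM in NPs (32, 62 and 25 counts), a fall of 110-fold (log2 fold change −6.79 ± 0.29, edgeR adjusted p = 8.57e-07). Spry2 was at 54.4, 56.2 and 41.9 RPKM in ESCs and at 6.57, 9.97 and 4.26 RPKM in NPs, a fall of 7.37-fold (−2.88 ± 0.28, edgeR adjusted p = 4.49e-05). Neither gene's NP libraries overlapped with ESCs. Within NPs both genes were highest in library 2, which also had the highest fibroblast and mesoderm sums. That library had the highest pluripotency sum too (91.1 RPKM, against 80.65 and 63.9 in libraries 1 and 3). The part of these in the levels was not tested. The falls of both genes were called with any single library left out. Their relative Spry1, no member here, was higher in every NP library (7.45 to 18.02 RPKM) than in ESCs (4.30 to 4.67 RPKM) and was not called (1.34 ± 0.30, edgeR adjusted p = 0.00442).

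Dusp6, which removes phosphates from ERK in the cytoplasm, was at 13.1, 14.0 and 8.99 RPKM in ESCs and at 14.3, 24.3 and 12.3 RPKM in NPs. The ranges overlap and the difference was not called (0.49 ± 0.26, edgeR adjusted p = 0.135). TET TKO ESCs were at 38.92, 40.3 and 25.5 RPKM, above every ESC and NP library. That 2.89-fold difference missed the limits on fold and on adjusted p (1.53 ± 0.22, edgeR adjusted p = 0.00216). Without TET TKO library 3 it was called (1.71, edgeR adjusted p = 0.000992).

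Spry2 and Spry4 were not called in TET TKO ESCs, and their libraries were less alike there. Spry2 was at 72.1, 61.3 and 42.2 RPKM (0.20 ± 0.20, edgeR adjusted p = 0.482). Spry4 was at 44.6, 22.9 and 4.55 RPKM, a spread of 9.80-fold from a library inside the ESC range to one far below it (−0.79 ± 0.64, edgeR adjusted p = 0.368). On the log2(RPKM + 1) scale the SD of Spry4 was 1.56 in TET TKO ESCs, against a median of 0.20 and a 95th percentile of 0.58 over the 12295 genes with a mean of at least 1 RPKM there. Without TET TKO library 1 the log2 fold change was −1.60 and without library 3 it was −0.30, and neither was called. Library 3 also had the lowest Fgf15 and the highest Fgf4 of the 3, and the highest sum of the trophoblast list (439 RPKM). It had the lowest sum of 8 primed pluripotency genes (65.8 RPKM, against 160 and 204 in libraries 1 and 2). ESCs had 97.6 to 113 RPKM, between these values. Most of the TET TKO sums was Dnmt3b (92.0, 140 and 38.7 RPKM in libraries 1, 2 and 3).

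**Figure D3:**
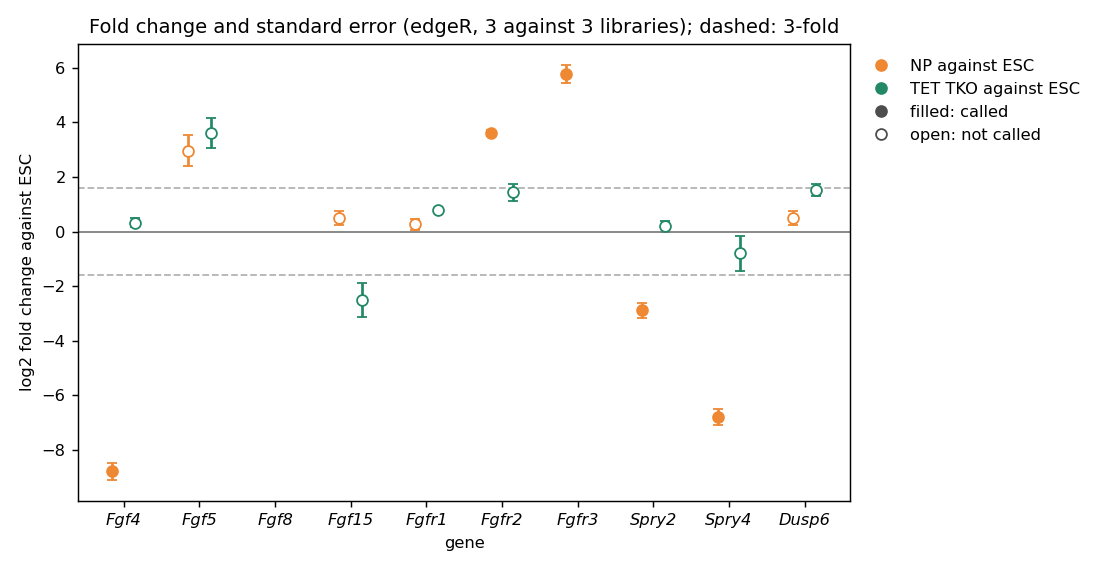
Log2 fold change against ESCs (vertical axis) of each tested FGF gene in NPs (orange) and TET TKO ESCs (green), with standard errors from edgeR. Filled points were called and dashed lines mark 3-fold. The 5 filled points all belong to NPs, from −8.79 for Fgf4 to 5.78 for Fgfr3, and Fgf8 in both comparisons and Fgfr3 in TET TKO ESCs were not tested.

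Against ESCs, TET TKO ESCs had no called member among the 8 tested by edgeR, where 2.31% of all 13939 genes tested were called, 1.1% higher and 1.21% lower. At an unadjusted p under 0.05 there were 5, Fgf5, Fgf15, Fgfr1, Fgfr2 and Dusp6, against 46.5% of all genes, and the same 5 had an adjusted p under 0.05, against 35.5%. DESeq2 called 2, Fgf5 and Fgf15. The ranges of the libraries did not overlap for 5 of the 8, against 51.8% of all genes tested. The median log2 fold change was 0.55 over the 8 members and 0.12 over all genes. These shares are read from few genes, and a p above the limit does not show that a level was the same.

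The order of levels sums up each population. In ESCs Fgf4 came first, above Spry2 and Spry4, whose ranges overlap with each other. Fgfr1 and Dusp6 followed with overlapping ranges, then Fgf15, then Fgfr2, and Fgfr3, Fgf8 and Fgf5 were at the bottom, each with a range that overlaps its neighbour's. In NPs Fgfr2, Fgfr1, Dusp6 and Fgfr3 had means of 17.7 ± 0.96, 17.6 ± 5.01, 17.0 ± 6.39 and 16.8 ± 6.40 RPKM (n = 3 each) and were not separated by their spread. Fgf15 and Spry2, at 6.98 ± 2.40 and 6.93 ± 2.87 RPKM, formed the next level, and Fgf5, Spry4, Fgf4 and Fgf8 were lowest. In TET TKO ESCs Fgf4 again came first (93.7 ± 21.8 RPKM), above Spry2 (58.5 ± 15.1) and Dusp6 (34.9 ± 8.16), and Fgfr1 (25.3 ± 1.28) lay within the wide range of Spry4 (24.03 ± 20.04).

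Other genes of the pathway were counted in lists by role. Of the other FGF genes, 7 of 18 were tested in NPs, where Fgf9 was called higher and Fgf17 and Fgf1 lower. Fgf17, which belongs to the Fgf8 subfamily and was the second most abundant FGF gene in ESCs, fell from 17.9 ± 1.26 to 0.25 ± 0.097 RPKM (log2 fold change −6.14 ± 0.28, edgeR adjusted p = 1.08e-06). Fgf1 fell from 1.73 ± 0.16 to 0.064 ± 0.045 RPKM, and Fgf9, an embryonic signal that acts mainly on FGFR3 and FGFR2, rose from 0.017 ± 0.015 to 0.93 ± 0.55 RPKM. Fgf9 held 0, 2 and 3 counts in the ESC libraries and passed the filter only through NP library 2 (1.56 RPKM), so its call rests on the group where it is high. That call was lost without ESC library 2 or 3, and Fgf9 was not tested without NP library 2. In NPs Fgf17 (8, 7 and 14 counts) and Fgf1 (3, 13 and 5 counts) were near the limit of detection. Of these genes 6 were tested in TET TKO ESCs, where edgeR called none and DESeq2 called Fgf1 lower (0.54 ± 0.29 RPKM). Fgf17 was at 21.2, 14.7 and 3.498 RPKM (edgeR adjusted p = 0.524).

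Heparan sulfate proteoglycans and their enzymes, which hold FGFs at their receptors, had 8 of 18 tested genes called higher in NPs and none lower. Of all genes 12.4% and 9.98% were called, and the median log2 fold change was 1.37 against 0.04 over all genes. At an adjusted p under 0.05 with no limit on fold 14 were higher and 1, Sdc4, lower, against 64.1% of all genes in either direction. The glypican Gpc6 rose from 0.087 ± 0.0078 to 8.61 ± 0.996 RPKM (6.63 ± 0.18, edgeR adjusted p = 2.45e-07) and Gpc3 from 25.4 ± 9.90 to 170.8 ± 27.1 RPKM. Hs6st2, which adds sulfate to heparan sulfate, rose from 0.17 ± 0.035 to 5.64 ± 1.63 RPKM in NPs and to 1.09 ± 0.26 RPKM in TET TKO ESCs (2.67 ± 0.29, edgeR adjusted p = 0.000689). It was the 1 gene of 17 called there, against 2.31% of all genes. Over the ESC and TET TKO libraries Sdc4 was the most abundant of the list. It was at 119 ± 38.0 RPKM in TET TKO ESCs against 42.3 ± 4.93 in ESCs and was not called (edgeR adjusted p = 0.00217). In NPs Sdc4 was at 17.2 ± 3.91 RPKM, a 2.46-fold fall that is under the limit on fold (−1.30 ± 0.18, edgeR adjusted p = 0.000265). Of the other receptors and co-receptors, 2 of 4 were tested, and Fgfrl1, a receptor without a kinase domain, rose in NPs from 4.47 ± 0.65 to 23.8 ± 2.65 RPKM.

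In the relay from receptor to ERK, 2 of 21 genes were called higher and 2 lower in NPs, against 12.4% and 9.98% of all genes, with a median log2 fold change of −0.06. The exchange factor Sos2 rose from 1.51 ± 0.14 to 5.83 ± 0.56 RPKM and the kinase Rps6ka3 from 5.61 ± 0.30 to 17.4 ± 2.87, a call lost under upper quartile scaling, in DESeq2 and without NP library 3. The adaptor Gab1 fell from 101.3 ± 11.9 to 22.8 ± 6.85 RPKM (−2.16 ± 0.22, edgeR adjusted p = 5.60e-05) and Rps6ka1 from 46.2 ± 4.004 to 13.7 ± 2.56. None of 21 was called in TET TKO ESCs, with a median of 0.43 against 0.12 over all genes, and at an adjusted p under 0.05 with no limit on fold 10 were higher and 1 lower, against 22.8% and 12.7% of all genes. Gab1, the most abundant, was at 127 ± 21.4 RPKM there (edgeR adjusted p = 0.119).

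Other regulators of the pathway were counted as a list of feedback genes. In NPs 5 of 17 tested were called higher and none lower, against 12.4% and 9.98% of all genes, with a median of 0.71. Upper quartile scaling gave 5 higher and 1 lower, and without a limit on fold 9 were higher and 5 lower at an adjusted p under 0.05. The phosphatase Dusp4, which acts on ERK in the nucleus, rose from 5.26 ± 0.47 to 31.3 ± 15.4 RPKM (2.57 ± 0.32, edgeR adjusted p = 0.000163), a call lost without ESC library 1 or 3. Flrt3 and Flrt2 are transmembrane proteins that bind FGF receptors and are not known as inhibitors of them, and both are among the 5. Flrt3 rose from 1.10 ± 0.19 to 10.9 ± 4.33 RPKM and Flrt2 from 0.37 ± 0.057 to 3.56 ± 0.13. Against ESCs, 2 of 15 were called in TET TKO ESCs, both phosphatases. Dusp4 rose to 22.4 ± 2.89 RPKM (2.08 ± 0.14, edgeR adjusted p = 0.000121) and Dusp5 from 3.20 ± 0.45 to 10.4 ± 1.29 RPKM (1.69 ± 0.18, edgeR adjusted p = 0.000597). Without any 1 of the ESC libraries neither these nor Hs6st2 were called. The call of Dusp5 was also lost without any 1 of the TET TKO libraries, under both other scalings, in DESeq2 and with thinned counts, and that of Hs6st2 without TET TKO library 1 or 2 and with library sizes alone.

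Transcription factors and early genes switched on by ERK were divided. In NPs 1 of 14 tested was called higher and 3 lower, against 12.4% and 9.98% of all genes, with a median of −0.09. The ETS factors Etv5 and Etv4, which like the Sproutys are read as targets of FGF signalling, fell from 55.2 ± 4.96 to 1.69 ± 0.91 RPKM (−5.03 ± 0.33, edgeR adjusted p = 5.98e-06) and from 35.8 ± 6.33 to 3.62 ± 1.86 RPKM. Egr1 fell by 1.59 on the log2 scale, at the limit of 3-fold, and its call was lost with library sizes alone, with all 3 groups in the fit and without any 1 library other than NP library 2. Phlda1 rose from 1.66 ± 0.56 to 14.4 ± 5.43 RPKM. None of 14 was called by edgeR in TET TKO ESCs and 1, Etv1, was called lower by DESeq2 (0.37 ± 0.19 RPKM against 1.19 ± 0.24). Ier2, the most abundant, was at 84.3 ± 22.8 RPKM against 73.75 ± 4.92.

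**Figure D4:**
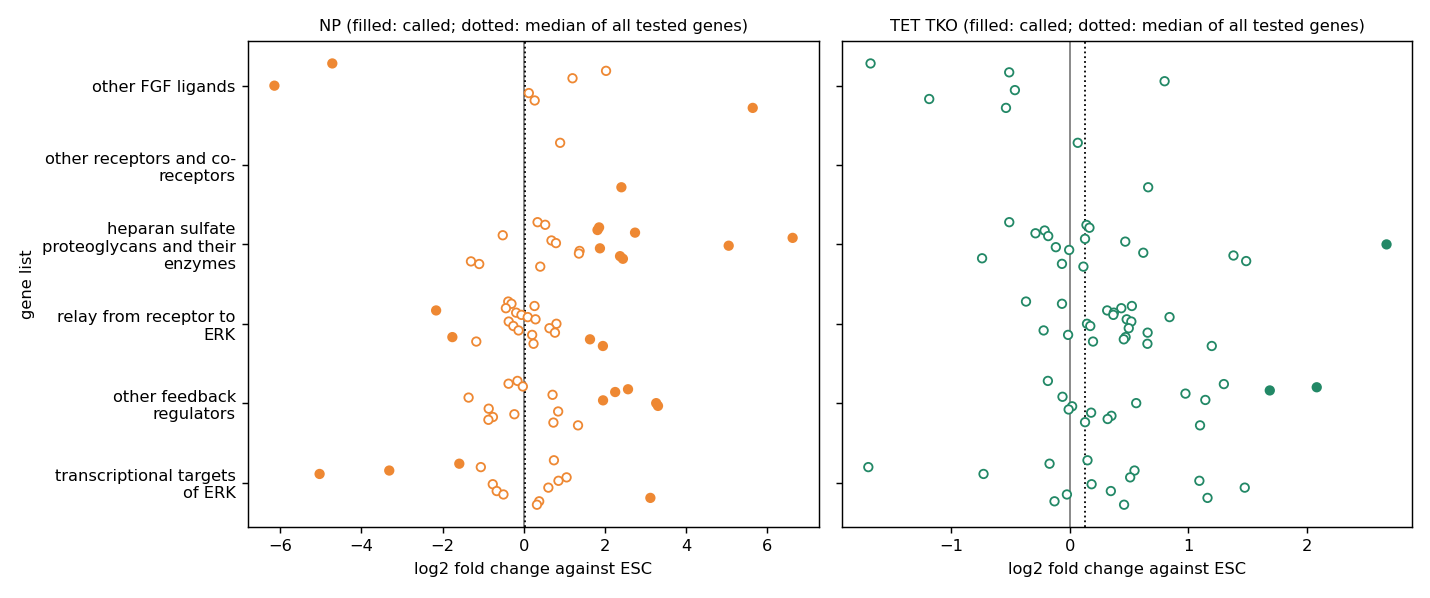
Log2 fold change against ESCs (horizontal axis) of each tested gene in 6 pathway lists (vertical axis) in NPs (left) and TET TKO ESCs (right). Each point is 1 gene, filled points were called, and the dotted line is the median of all genes tested. Filled points lie on both sides for ligands, relay and ERK targets in NPs, and on the right for heparan sulfate genes and other feedback regulators.

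The genes with the pattern most like each member were found from the root mean square difference of mean-centred log2(RPKM + 1) over the 9 libraries. These libraries form 3 groups, so a likeness mainly reflects the group means. Fgf4 was nearest to Klf2 (0.28) and Fbxo15 (0.35), Spry2 to Def6 (0.17) and Rbpms2 (0.20), and Spry4 to Gm26564 (0.41) and Gm46332 (0.45). Fgfr3 was nearest to Gdf11 (0.14) and Irx5 (0.17) and Fgfr2 to Jun and Marcks (both 0.24). Fgfr1 had the closest neighbours, Mbtps1 (0.05) and Tprkb (0.07), in a pattern with little change. Dusp6 was nearest to Irgm1 and Colec12 (both 0.18), Fgf5 to Sh3bp4 and Itgb1 (both 0.19), and Fgf15 to Rnase4 (0.35) and Gm13123 (0.39).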

How the data were processed

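RNA-seq was analysed in 9 libraries, 3 biological replicates for each of the 3 populations. The authors prepared stranded libraries, read 50-base single ends, trimmed them (Trimmomatic 0.38 in the submitters' processing notes), aligned them with STAR 2.6.1b to GRCm38 and counted them per gene with featureCounts 1.6.2 and Ensembl 89, without strand. The deposited values are raw counts per gene, and reads that overlap several genes were not assigned. Totals were 20570050 to 23976914 counts in ESCs, 20519702 to 22132988 in NPs and 80704741 to 93210102 in TET TKO ESCs, and the mitochondrial share was 0.87% to 2.12%.

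From these counts, RPKM were computed with TMM scaling over 9 libraries. The test was the quasi-likelihood F-test in edgeR 4.0.16 (R 4.3.3), after keeping genes with at least 1 RPKM in 1 library. It was also run on counts simulated from dispersions that edgeR fitted to these libraries. That run cannot show how the test does where its model fails. The fold and p limits are those of the study, whose wording of the expression filter was read as keeping such genes. The standard error is the log2 fold change over the square root of F. Of 51912 genes, 51633 had a symbol, and no row lacked a gene name.

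The members and lists were chosen with earlier results of these data known, so counts over them are descriptions. Genes named are the members, Tet1, Tet2, Tet3, up to 3 called genes per direction, list and comparison with largest change among those whose libraries in the higher group each held 10 counts, the most abundant tested gene of lists with under 2 calls, and the 2 nearest patterns. Genes named with a marker list are among its 2 most abundant over all libraries. Fgf11, Fgf13, Spry1, Dusp1, Etv1 and the genes overlapping members were named after their values were seen. The alternatives were library sizes alone, upper quartile scaling, DESeq2 1.42.0, no filter, at least 10 counts in every library, other thresholds, all 3 groups in a fit, the replicate number as a block, TET TKO counts thinned to the depth of ESCs, and each library left out in turn. Other calculations used Python 3.11.15, numpy 2.4.6, pandas 2.3.3 and matplotlib 3.10.9.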

Additional observations from a re-analysis of the deposited data

How the results depend on the processing

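Among the members, the 5 calls in NPs held under every alternative run, except that Fgf4 was not tested with at least 10 counts in every library, which left 4. The number was 6, with Fgf5 added, under DESeq2, no filter, all 3 groups in the fit and the replicate block, and 5 to 5 with 1 library left out. In TET TKO ESCs the count of called members was 0 under the 2 other scalings and with thinned counts, 2 (Fgf5 and Fgf15) under DESeq2 and with no filter, 1 (Fgf5) with the replicate block, 5 at an adjusted p under 0.05 with no limit on fold, and 0 to 1 with 1 library left out. Fgfr1 in NPs changed sign under upper quartile scaling (log2 fold change −0.0096).

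Over all genes, 3408 were called in NPs, 5281 with no filter, 5145 at an adjusted p under 0.001 and 9734 at one under 0.05 without a limit on fold, and 2464 to 3413 with 1 library left out. Of 322 in TET TKO ESCs there were 910 under DESeq2, 1263 with no filter, 535 and 4953 without a limit on fold at these p-values, 674 with the replicate block and 312 with thinned counts. Leaving out 1 library gave 50 to 329, with 50, 59 and 74 without ESC replicate 1, 2 and 3 and 126 and 190 without TET TKO replicate 1 and 2. Scaling moved the balance. In NPs 1891 genes were called higher and 1517 lower, and 1553 and 1892 with upper quartile scaling, where the median log2 fold change of all genes was −0.26 in place of 0.04. In TET TKO ESCs 153 and 169 became 99 and 191 with library sizes alone (median −0.05 in place of 0.12). The cause of these shifts was not tested.

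The pathway lists held 25 called genes in NPs (57 at an adjusted p under 0.05 with no limit on fold, 21 to 25 with 1 library left out) and 3 in TET TKO ESCs, where the number was 1 with library sizes alone, 6 with no filter, 5 and 31 without a limit on fold at an adjusted p of 0.001 and 0.05, and 0 to 2 with 1 library left out.

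Replicate numbers are shared between groups but nothing says that they mark a pairing. The deviations of same-numbered libraries from their group means correlated at −0.07, 0.01 and −0.16 between ESCs and NPs and at −0.09, 0.35 and 0.21 between ESCs and TET TKO ESCs, so not every library went with its own number. With the block 3415 genes were called in NPs. Depth limits the members Fgf8, Fgf5 in ESCs and Fgf4 in NPs, which rest on 30 counts or fewer per library. It also limits Fgf17 and Fgf1 in NPs and Fgf9 in ESCs, and none of these was tested in NPs with at least 10 counts in every library.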

Other observations

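In the TET TKO libraries 1, 2 and 3, Fgf17 was at 21.2, 14.7 and 3.498 RPKM and Etv4 at 74.8, 66.8 and 16.3 RPKM, where Spry4 was at 44.6, 22.9 and 4.55. These genes were picked after their values were seen. Of the tested genes in the list of ERK targets 9 of 14, and in that of other feedback regulators 8 of 15, were lowest in library 3, against 37.5% of all genes tested. Spry1 (12.9, 6.92 and 9.51 RPKM) and Dusp1 (27.99, 20.6 and 30.1 RPKM) were not, and were picked in the same way. What sets library 3 apart was not tested.

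Tet3, one of the genes removed in the TET TKO line, was at 0.631 to 0.770 RPKM in ESCs and at 13.0, 5.09 and 5.35 RPKM in NPs (log2 fold change 3.45 ± 0.38, edgeR adjusted p = 8.15e-05), while Tet1 fell by 3.97 and Tet2 fell by 2.52 on the log2 scale. In NPs library 1 was highest for Tet3, Fgfr1, Fgfr3 and Fgf11, and also for the summed neural progenitor markers (721 RPKM, against 468.5 and 561). It was lowest for Fgfr2 (16.9 RPKM, against 17.4 and 18.7) and Fgf15 (4.45 RPKM, against 9.22 and 7.27). These genes were picked after their values were seen, and a link to the markers was not tested.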
